A study of Homo sapiens with 7 samples.

Results

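The myostatin and activin axis was examined in RH30 cells, an established cell line of alveolar rhabdomyosarcoma (RMS), a childhood tumor with features of developing skeletal muscle. Its members were taken as 10 listed genes, out of 57189 genes in the count data. They comprise the ligand genes MSTN, GDF11 and INHBA, the antagonist genes FST and FSTL3, the receptor genes ACVR2A, ACVR2B and ACVR1B, and the intracellular signal genes SMAD3 and SMAD7. All 10 were found by their symbol, and 9 passed the filter on low counts, the exception being INHBA. RNAseq counts were analysed for 7 samples, 4 of untreated RH30 cells and 3 of RH30 cells exposed to 5 µM BV6 for 24 h, and the labels give the genotype of all as wild type. BV6 is a bivalent small molecule that imitates Smac, the mitochondrial protein that binds and blocks inhibitor of apoptosis proteins. The study's methods describe GFP- and luciferase-expressing RH30 cells, so that all groups stem from a single cell line. BV6 replicates 2, 3 and 4 each carry the same label as an untreated sample and are taken here as 3 pairs from 3 experiments and untreated replicate 1 stands without one. The study calls its RNAseq samples biological replicates, but the labels do not say that they came from separate cultures, so p-values measure the spread between these samples, which may be technical.

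Myostatin is a secreted ligand of the TGF-β family that restrains the growth of skeletal muscle, and loss of its gene gives enlarged muscles in several mammals. Myostatin, GDF11 and the activins bind activin type II receptors, which recruit and phosphorylate a type I receptor such as the product of ACVR1B. The type I receptor then phosphorylates SMAD2 and SMAD3, which enter the nucleus with SMAD4. Follistatin and its relative FSTL3 bind the ligands outside the cell and keep them from their receptors, and SMAD7 acts as an inhibitor inside the cell.

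Each sample held between 54070030 and 77220882 counts in all, and 3 counts, the least taken as detected, correspond to 0.0389 to 0.0557 CPM, the counts scaled to library size with TMM factors. This floor covers counting error only. A count of exactly 2 was more frequent than a count of 1 in every sample, with 3211 to 3389 against 1765 to 2235 genes, and 58.8% to 62.8% of counts from 1 to 10 were even. Total counts also exceed the read number per library that the study states. The mates of a read pair may thus have been counted separately, at least in part, in which case a count at any level stands for fewer fragments than its number. BV6 treatment was visible in BIRC3, the gene of cIAP2, which averaged 2.44 CPM (± 1.57, SD of 4 samples) untreated and 70.4 CPM (± 27.4, SD of 3 samples) with BV6, and in the NF-κB inhibitor gene NFKBIA, with 23.9 and 107 CPM. Both rose (adjusted p = 0.00341 and 0.0116 by edgeR with Benjamini-Hochberg correction), and NFKBIA lost its call without untreated replicate 4 at an adjusted p of 0.0579 in the same test. The muscle label was met by 9 of 10 lineage markers with a mean of at least 1 CPM, MYOD1, MYOG and DES among them, while MYF6 had at most 5 counts in any sample. The summed CPM of these markers was 2062 to 2933 in untreated and 1367 to 2345 in BV6 samples. Their part in the results below was not tested. Among 4 epithelial markers, none reached a mean of 1 CPM, and PTPRC, which marks all leukocytes, stayed at or below 0.801 CPM in every sample. NCAM1, listed as a marker of NK cells and also expressed by muscle-lineage cells, averaged 427 CPM in untreated samples, NKG7 9.79 CPM and CD68 2.96 CPM. The endothelial marker PECAM1 averaged 59.3 CPM in untreated samples, while CDH5 stayed at or below 0.259 CPM in every sample. VWF, the third endothelial marker, averaged 0.816 CPM in untreated and 1.48 CPM in BV6 samples. Of 4 fibroblast markers, 2 had a mean of at least 1 CPM, COL1A1 at 11.5 and LUM at 2.52 CPM in untreated samples. None of the markers tested was called.

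MSTN was the member with the largest difference between the groups, and all 3 BV6 samples lay below all 4 untreated samples. The gene lies on chromosome 2 (GRCh38, 190055700 to 190062729, minus strand). Its level was 6.66, 8.38, 7.01 and 6.16 CPM in untreated replicates 1 to 4 and 2.06, 3.31 and 2.64 CPM in BV6 replicates 2 to 4, from 381 to 513 and 116 to 203 counts. The lowest untreated sample was thus still well above the highest BV6 sample. MSTN fell from a mean of 7.05 CPM (± 0.955, SD of 4 samples) untreated to one of 2.67 CPM (± 0.623, SD of 3 samples) with BV6. This was a log2 fold change of -1.40 with a standard error of 0.207, a 95% interval of -1.86 to -0.94 and an adjusted p of 0.0239 (edgeR, Benjamini-Hochberg). Within the 3 experiments the BV6 sample held 24.6%, 47.2% and 42.8% of the MSTN level of its untreated partner, with the lowest share in experiment 2. In these bulk samples, fewer cells that express MSTN and less MSTN RNA per cell cannot be told apart. Over the 7 fits that each omit 1 sample, its fold change on the log2 scale ranged from -1.58 to -1.23 and the adjusted p from 0.0177 to 0.114, and MSTN passed the test only without BV6 replicate 3. With both samples of experiment 2 left out, an alternative added once the values were known, the fold change was -1.14 on the log2 scale and was not called (adjusted p = 0.148, edgeR with Benjamini-Hochberg).

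Follistatin, encoded by FST, binds and neutralizes both myostatin and activins, and was the other member whose groups did not overlap. FST (chromosome 5, 53480626 to 53487134, plus strand) was at 104, 99.9, 162 and 110 CPM in untreated replicates 1 to 4 and at 38.4, 83.2 and 61.1 CPM in BV6 replicates 2 to 4. Untreated replicate 3 was the highest and its BV6 partner was also the highest of the BV6 samples. Mean levels were 119 CPM (± 28.8, SD of 4 samples) and 60.9 CPM (± 22.4, SD of 3 samples). FST had a log2 fold change of -0.96 with a standard error of 0.26 and a 95% interval of -1.55 to -0.38, and its adjusted p of 0.237 did not pass the test when only the condition was modeled (edgeR, Benjamini-Hochberg). Within experiments 2, 3 and 4, the BV6 sample held 38.4%, 51.5% and 55.7% of the FST level of its partner. With the experiment as a replicate block, the log2 fold change was -1.06 with a standard error of 0.119, a 95% interval of -1.34 to -0.78 and an adjusted p of 0.0105, so that FST fell in the paired comparison. MSTN was lower with the replicate block as well, with a log2 fold change of -1.43 and an adjusted p of 0.027 (edgeR, Benjamini-Hochberg). Without experiment 2, in the fit with condition only, the log2 fold change of FST was -0.78 and neither gene was called. FST was not called in that fit with all samples either. The replicate block was not run without experiment 2, so the paired result of FST was not examined in this way.

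Among the 9 members tested, MSTN alone passed the test, and this 1 call was for a lower level. Across all genes tested, 0.45% were called and 0.0562% were called lower. With the replicate block, 2 members passed, both lower, against 0.943% of all genes called and 0.294% called lower. With the Wald test of DESeq2 the same 2 members, MSTN and FST, passed, against 1.61% of all genes. At an unadjusted p below 0.05, the 2 genes were again the only members, against 8.39% of all genes. The groups did not overlap, with BV6 lower, for 2 of the 9 members, while this held for 3.89% of all genes. A lower level in all 3 pairs was found for 5 members, MSTN, FST, ACVR2B, SMAD3 and SMAD7, and for 17.8% of all genes. The median log2 fold change of the 9 members was -0.07, beside -0.01 for all genes tested. The members were chosen with earlier results of these data known, so these shares are a description and no test of the axis.

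**Figure D1:**
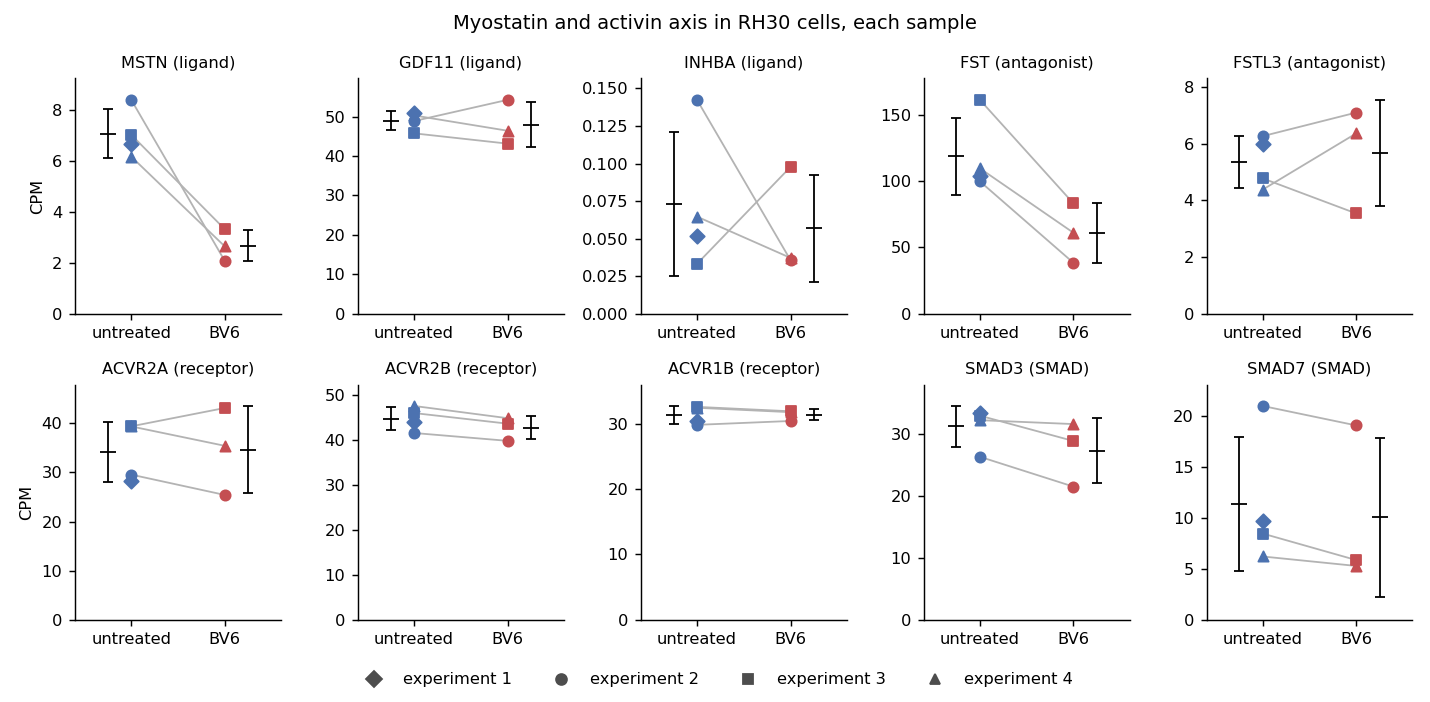
Level of each of the 10 members in CPM (vertical axes, each from 0) in untreated (blue) and BV6-treated (red) RH30 samples; symbols give the experiment, gray lines join the samples of a pair, and bars are mean ± SD (n = 4 and n = 3). The BV6 samples of MSTN (2.06 to 3.31 CPM) and FST (38.4 to 83.2 CPM) lie below all their untreated samples, and the groups of the other 8 members overlap.

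The upstream sequences of the ligand pair and of FST are shown because MSTN and FST were lower in BV6 samples while GDF11, the closest relative of MSTN, was not called. Each is the 250 bases before the gene's start in RefSeq (GRCh38.p14), written along the gene's own strand, and all 10 members had such a window. Capitals mark matches, on either strand, to the E-box CANNTG, to the TATA box TATAAA and to the SMAD half-site CAGAC. Myogenic factors of the MYOD1 family bind sites of this E-box form, but a match does not show which factor, if any, binds it. The windows are chr2:190062730-190062979 (minus strand) for MSTN, chr5:53480379-53480628 (plus strand) for FST and chr12:55742872-55743121 (plus strand) for GDF11.
MSTN: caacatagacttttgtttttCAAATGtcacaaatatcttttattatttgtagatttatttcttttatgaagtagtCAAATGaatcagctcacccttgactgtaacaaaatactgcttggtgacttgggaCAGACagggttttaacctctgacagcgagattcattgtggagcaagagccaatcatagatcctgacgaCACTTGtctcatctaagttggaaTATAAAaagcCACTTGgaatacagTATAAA
FST: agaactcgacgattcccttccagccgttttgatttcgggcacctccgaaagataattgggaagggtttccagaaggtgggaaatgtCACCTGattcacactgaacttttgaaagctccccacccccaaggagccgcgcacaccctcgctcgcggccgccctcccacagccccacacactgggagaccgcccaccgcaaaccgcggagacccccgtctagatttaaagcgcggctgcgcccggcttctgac
GDF11: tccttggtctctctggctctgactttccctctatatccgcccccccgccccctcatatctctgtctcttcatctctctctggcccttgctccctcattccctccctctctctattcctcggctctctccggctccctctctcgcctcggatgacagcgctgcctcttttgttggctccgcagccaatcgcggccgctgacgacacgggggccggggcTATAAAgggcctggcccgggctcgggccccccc
The MSTN window held 4 E-box matches, 2 TATA box matches and 1 SMAD half-site match. Its TATA boxes lay 30 to 25 and 6 to 1 bases before the start. The FST window held 1 E-box, CACCTG, at 164 to 159 bases before the start, and no match to the other motifs. In GDF11 the 1 match was a TATA box at 33 to 28 bases before the start. Among 35116 windows of 27305 genes, 61.8% held an E-box, 10.7% a TATA box and 38% a SMAD half-site, so that an E-box match alone is common. The median number of E-box matches in a window was 1. The GC content was 35.2% for MSTN, 60% for FST and 64.4% for GDF11, beside a median of 58% over all windows, and 5.67% of windows had a lower GC content than that of MSTN. Members that were not called held such matches too. The FSTL3 window had 2 E-box matches and 1 TATA box match. The first of 3 SMAD7 windows had 1 E-box match and 2 SMAD half-site matches. ACVR2A and ACVR2B had no match to any of the motifs. These matches are letters in a window and no measurement of binding, and a link between matches and RNA levels was not tested.

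The other ligand genes were not called. GDF11 (chromosome 12, 55743122 to 55757264, plus strand) encodes the nearest relative of myostatin and signals through the same receptors. It was at 51, 48.9, 45.8 and 50.3 CPM in untreated replicates 1 to 4 and at 54.3, 43.1 and 46.4 CPM in BV6 replicates 2 to 4. The BV6 samples held both the highest and the lowest value of all 7. In the fit, GDF11 had a log2 fold change of -0.03 with a 95% interval of -0.29 to 0.22 (edgeR), which leaves out a fall of the size measured for MSTN. GDF11 shares 378 exonic bases, or 4.3% of its exon length, with SARNP on the opposite strand, and whether the counting used strand is not given in the sources used here.

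INHBA (chromosome 7, 41667168 to 41705834, minus strand) encodes the βA subunit, which forms activin A as a homodimer. It was close to the limit of detection, with 4, 8, 2 and 4 counts in untreated replicates 1 to 4 and 2, 6 and 2 counts in BV6 replicates 2 to 4. All 7 of these counts are even, so they may stand for fewer fragments. The groups overlapped and no difference was detectable at this depth. Activin A transcripts from these cells were thus near the floor in both conditions, whereas FST, an antagonist of activin A, was among the abundant members.

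FSTL3 (chromosome 19, 676392 to 683392, plus strand) encodes a follistatin-like protein that also binds myostatin and activins. FSTL3 was at 5.98, 6.27, 4.78 and 4.38 CPM in untreated replicates 1 to 4 and at 7.1, 3.54 and 6.37 CPM in BV6 replicates 2 to 4. The BV6 samples fell on both sides of the untreated ones, higher than their partner in experiments 2 and 4 and lower in experiment 3. FSTL3 had a log2 fold change of 0.08 with a 95% interval of -0.48 to 0.64 and an adjusted p of 0.948 (edgeR, Benjamini-Hochberg). This interval does not include the value of -0.96 fitted for FST, although a test of the difference between these genes was not made.

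**Figure D2:**
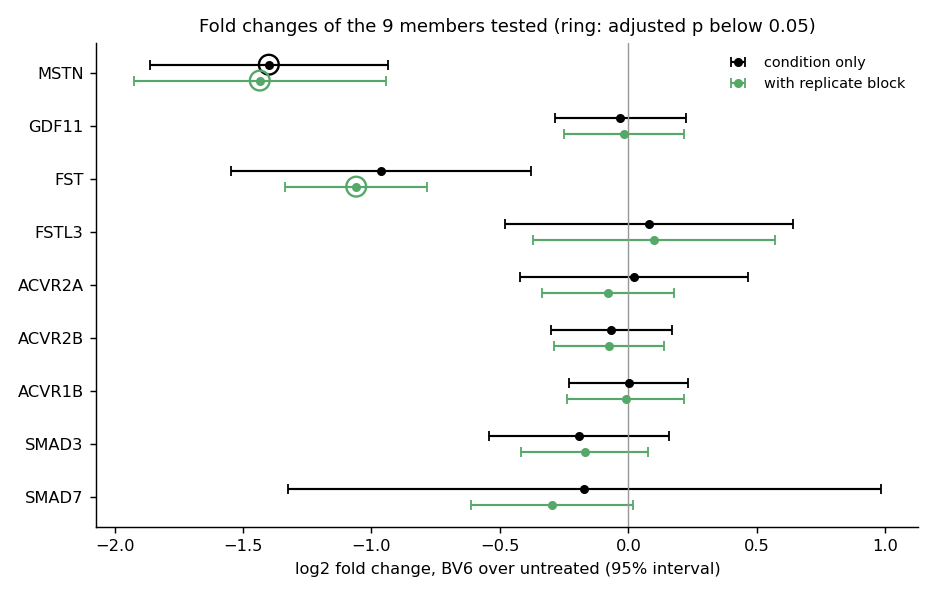
Log2 fold change of BV6 over untreated samples (horizontal axis) for the 9 members tested, as points with 95% intervals, in the fit with condition only (black) and with the replicate block (green); rings mark an adjusted p below 0.05. MSTN is ringed in both fits at -1.40 and -1.43, FST in the second only at -1.06, and the intervals of the other 7 members include 0 in both.

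None of the receptor genes was called. The standard error of the log2 fold change was 0.105 for ACVR2B and 0.103 for ACVR1B, but 0.198 for ACVR2A (edgeR, condition only). ACVR2B (chromosome 3, 38453890 to 38493142, plus strand) encodes the type II receptor with high affinity for myostatin. ACVR2B was at 43.9, 41.5, 45.9 and 47.5 CPM in untreated replicates 1 to 4 and at 39.8, 43.6 and 44.8 CPM in BV6 replicates 2 to 4. Each BV6 sample was slightly below its partner, at 95.8%, 94.9% and 94.3% of it, and the groups overlapped. Its log2 fold change was -0.07 with a 95% interval of -0.30 to 0.17 (edgeR).

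ACVR2A (chromosome 2, 147844517 to 147930826, plus strand) encodes the other activin type II receptor. Its values were 28.2, 29.6, 39.4 and 39.4 CPM in untreated replicates 1 to 4 and 25.4, 43.1 and 35.4 CPM in BV6 replicates 2 to 4. Experiment 2 was low in both conditions, as was untreated replicate 1. ACVR2A had a log2 fold change of 0.02 with a 95% interval of -0.42 to 0.47 in the fit with condition only and -0.08 with the replicate block (edgeR), so that its direction depended on the fit. ACVR2A shares 431 exonic bases, 6.68% of its exon length, with ORC4 on the opposite strand.

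ACVR1B (chromosome 12, 51951699 to 51997078, plus strand) encodes ALK4, the type I receptor of activins. Its values varied little, between 29.8 and 32.5 CPM in untreated and between 30.4 and 31.9 CPM in BV6 samples. Both groups averaged 31.3 CPM, and the 95% interval of the log2 fold change of ACVR1B was -0.23 to 0.23 (edgeR).

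SMAD3 and SMAD7 act inside the cell. SMAD3 (chromosome 15, 67063763 to 67195173, plus strand) encodes the transcription factor that carries the signal to the nucleus. Its level was 33.4, 26.3, 32.9 and 32.2 CPM in untreated replicates 1 to 4 and 21.5, 28.9 and 31.6 CPM in BV6 replicates 2 to 4. SMAD3 was lower with BV6 in each pair, at 81.7%, 87.6% and 98% of the partner, and both samples of experiment 2 were the lowest of their group. For SMAD3 the log2 fold change was -0.19 with a 95% interval of -0.54 to 0.16 and an adjusted p of 0.776, and with the replicate block -0.17 with an adjusted p of 0.609 (edgeR, Benjamini-Hochberg).

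SMAD7 (chromosome 18, 48919853 to 48950965, minus strand) encodes the inhibitory SMAD, whose gene is itself a target of SMAD3 and serves as feedback. SMAD7 was at 9.74, 21, 8.47 and 6.22 CPM in untreated replicates 1 to 4 and at 19.1, 5.87 and 5.29 CPM in BV6 replicates 2 to 4. Both samples of experiment 2 stood above all others, so that the spread between experiments exceeded the difference between conditions. Within experiments 2, 3 and 4, the BV6 sample held 90.9%, 69.2% and 85% of the level of its partner. The log2 fold change of SMAD7 was -0.17 with a 95% interval of -1.33 to 0.98, and with the replicate block -0.30 with an interval of -0.61 to 0.02 and an adjusted p of 0.47 (edgeR, Benjamini-Hochberg). Leaving out single samples moved the fold change of SMAD7 between -1.01 and 0.29, so that no direction can be given from the fit with condition only.

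Levels of different members were compared as CPM per kb of exon length. FST stood first in both groups, at 43.1 CPM per kb (± 10.5, SD of 4 samples) untreated and 22.1 CPM per kb (± 8.15, SD of 3 samples) with BV6. In untreated samples its mean was 7.75 times that of GDF11, the next member, and the samples of the 2 genes did not overlap. GDF11, ACVR1B and ACVR2A followed at 5.57, 5.53 and 5.29 CPM per kb, and neighbors in this group overlapped. A lower group of SMAD3, SMAD7, ACVR2B and MSTN lay at 3.12, 2.88, 2.85 and 2.50 CPM per kb, again with overlap between neighbors. FSTL3 was next at 1.76 CPM per kb, below all MSTN values by union exon length but overlapping them by the longest transcript, and INHBA was last at 0.00882 CPM per kb. In BV6 samples MSTN was at 0.947 ± 0.221 CPM per kb, its place in the order moved from 8 to 9, and its samples overlapped those of FSTL3 at 1.87 CPM per kb. The order of the members between FST and INHBA depends on the exon length used, since reads were counted over a union of isoforms.

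**Figure D3:**
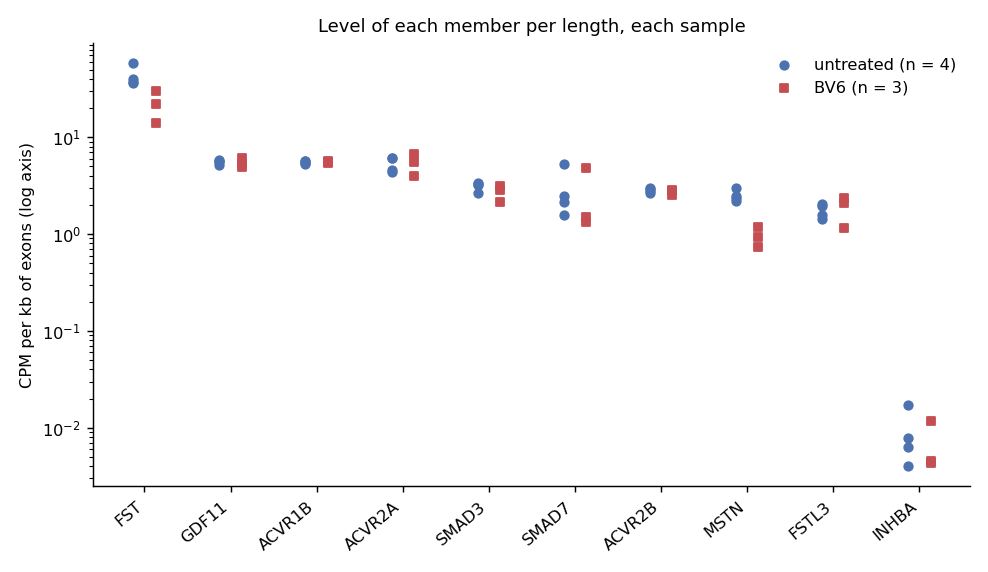
Level of each member in CPM per kb of exon length (vertical log axis) in each untreated (blue circles) and BV6 (red squares) sample, with members ordered by the untreated mean. FST lies above all other members in both groups, MSTN is the member that leaves the middle range with BV6 (2.50 to 0.947 CPM per kb), and INHBA lies near the detection limit.

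Ratios between members within a library do not depend on the scaling between libraries and are given as values with no test. MSTN and GDF11 are the pair of related ligands. The ratio of MSTN to GDF11, per kb, was 0.407, 0.535, 0.478 and 0.382 in untreated replicates 1 to 4 and 0.119, 0.239 and 0.177 in BV6 replicates 2 to 4. The ratio thus stood lower in every BV6 sample, with means of 0.451 ± 0.0697 (SD, n = 4) and 0.178 ± 0.0603 (SD, n = 3). GDF11 differed little between the groups, so this ratio restates the lower MSTN level and is no separate result. The ratio of FST to MSTN, added after the values had been seen, was 16, 12.2, 23.6 and 18.3 in untreated replicates 1 to 4 and 19, 25.8 and 23.7 in BV6 replicates 2 to 4. These groups overlapped, although the ratio was higher in the BV6 sample of each pair. The ratio of the receptor transcripts ACVR2A and ACVR2B was 1.85 ± 0.244 in untreated and 1.96 ± 0.428 in BV6 samples, with overlap. The ratio of FST to INHBA ran from 2112 to 14661 in untreated and from 2563 to 4955 in BV6 samples and rests on 2 to 8 counts of INHBA.

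**Figure D4:**
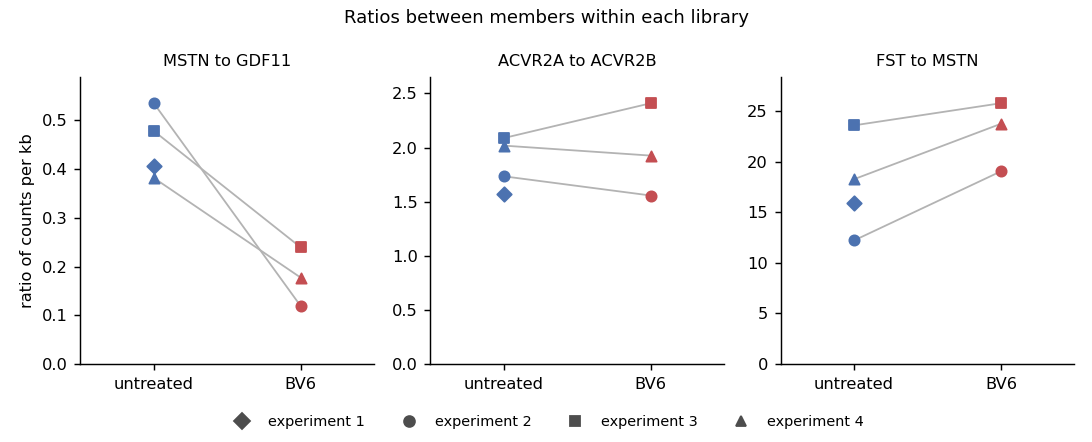
Ratios of counts per kb between members within each library (vertical axes, each from 0) for untreated (blue) and BV6 (red) samples; symbols give the experiment and lines join pairs. The ratio of MSTN to GDF11 is lower in all BV6 samples (0.119 to 0.239) than in all untreated samples (0.382 to 0.535), while the other ratios overlap.

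The genes whose level was most like that of MSTN over the 7 samples were found by Pearson correlation of log2 CPM among 17055 genes with a mean of at least 1 CPM. They were ARFGEF3 (r = 0.995), LINC01719 (0.99), WNT5A (0.989), CTGF (0.984) and MPPE1 (0.97). The points share the difference between conditions, and the values are a description only. WNT5A, a secreted WNT ligand, fell from a mean of 56.6 CPM untreated to 31.8 CPM with BV6 (log2 fold change -0.83, adjusted p = 0.018, edgeR with Benjamini-Hochberg). It kept this call in 1 of the 7 fits that omit a sample, with adjusted p of 0.0265 to 0.0782, and lost it without experiment 2. CTGF, a matrix-associated protein and a classical TGF-β target, was at 8.59 CPM in untreated and 5.27 CPM in BV6 samples, with an adjusted p of 0.098 in the same edgeR fit and 0.000324 with DESeq2. In edgeR, CTGF was at 0.0839 with the replicate block, 0.0475 with a GC offset and 0.009 with both (Benjamini-Hochberg). FST had an r of 0.879 and was at place 111, the highest of the members tested.

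The rest of the pathway was described with 8 lists that hold 122 further genes, of which 98 were tested. In edgeR with condition only, 1 of the 98 was called higher and 0 lower (1.02%, beside the 0.45% of all genes given above), and 17 had an unadjusted p below 0.05 (17.3%, beside 8.39%). The Wald test of DESeq2 called 2 higher, GREM1 and INHBE, and 3 lower, CTGF, LTBP2 and TGFBR2, where 1.61% of all genes were called. The replicate block in edgeR gave 1 call in each direction, where 0.943% of all genes were called. The median log2 fold change of the 98 genes was -0.05, beside -0.01 for all genes tested. These lists were likewise chosen with earlier results known, so their shares are no test of the pathway.

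Among 16 tested antagonists and binding proteins, GREM1 was the gene called higher. GREM1 encodes gremlin, a secreted antagonist that binds bone morphogenetic proteins (BMPs), not the ligands of the listed members. It was at 24.2, 28.9, 19.2 and 22.3 CPM in untreated replicates 1 to 4 and at 58.5, 55.9 and 62.1 CPM in BV6 replicates 2 to 4, with a wide gap between the groups. GREM1 rose with a log2 fold change of 1.32, a standard error of 0.143 and an adjusted p of 0.00574 (edgeR, Benjamini-Hochberg), and it kept its call with each of the 7 samples left out. FST and GREM1, both genes of secreted antagonists, thus lay on opposite sides in BV6 samples. LTBP2, a latent TGF-β binding protein of the extracellular matrix that also stands in the list of SMAD target genes, averaged 16.6 CPM (± 5.96, SD of 4 samples) untreated and 5.86 CPM (± 2.1, SD of 3 samples) with BV6. For LTBP2 the log2 fold change was -1.50 with an adjusted p of 0.138, and -1.40 with an adjusted p of 0.018 with the replicate block (edgeR, Benjamini-Hochberg).

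Of 17 further ligand genes tested, none was called in the 2 edgeR fits. INHBE, which encodes the activin βE subunit, was the most abundant of them. INHBE was at 116, 50.5, 118 and 130 CPM in untreated replicates 1 to 4 and at 255, 219 and 200 CPM in BV6 replicates 2 to 4. All BV6 samples were above all untreated samples, and untreated replicate 2 stood far below the other untreated samples. Its log2 fold change was 1.12 with a 95% interval of 0.51 to 1.72 and an adjusted p of 0.176 (edgeR, Benjamini-Hochberg). It passed with the Wald test of DESeq2 at an adjusted p of 0.0122 and, in edgeR, without untreated replicate 2.

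No call was made among 14 tested receptor and co-receptor genes, 18 SMADs and their regulators, 6 ligand-processing proteases, 6 BMP target genes or 8 genes linked to muscle growth below myostatin, with or without the replicate block in edgeR. TGFBR1, which encodes a type I receptor that myostatin can also use, averaged 374 CPM (± 38, SD of 4 samples) untreated and 480 CPM (± 66.5, SD of 3 samples) with BV6, with an adjusted p of 0.446 (edgeR, Benjamini-Hochberg). TGFBR2, the type II receptor of TGF-β, was at 135 ± 7.15 and 99.4 ± 10.8 CPM, with groups that did not overlap and an adjusted p of 0.188 in the same fit. TGFBR2 passed at an adjusted p of 0.0332 with DESeq2, and in edgeR at 0.0462 with the block on the 3 complete pairs, 0.0267 with a GC offset and 0.0018 with both offset and block (Benjamini-Hochberg). FURIN, a protease that cleaves ligand precursors, was at 106 ± 19.4 and 72.1 ± 29.3 CPM, and the groups overlapped. The SMAD regulator gene TGIF2 was at 80.9 ± 1.18 and 101 ± 6.43 CPM with an adjusted p of 0.276 in that fit, and STRAP, the most abundant gene of its list, was at 253 and 257 CPM. The groups of TGIF2 did not overlap. The BMP target genes ATOH8 and HEY1 were at 52.1 and 12 CPM in untreated and at 32.5 and 10.1 CPM in BV6 samples. TGFBR1, FURIN, TGIF2 and ATOH8 passed only with both GC offset and block, at adjusted p of 0.0413, 0.0102, 0.00735 and 0.00463 (edgeR, Benjamini-Hochberg). That fit called 1194 of 17940 genes.

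Target genes of activin and TGF-β SMADs had fold changes in both directions. Of 20 tested, SMAD7 among them, 8 had a log2 fold change above 0 and 12 below. Of all 23124 genes tested, 11020 lay above 0 and 12104 below. None of the 20 was called by edgeR with condition only, and LTBP2 alone was called lower by edgeR with the replicate block. The Wald test of DESeq2 called LTBP2 and CTGF lower, with adjusted p of 0.000573 and 0.000324. All 6 tested BMP target genes had a log2 fold change below 0, from -0.68 to -0.03, with none called. Of the muscle growth genes, FOXO3, a transcription factor of muscle protein breakdown, averaged 86.1 CPM (± 7.16, SD of 4 samples) untreated and 116 CPM (± 4.42, SD of 3 samples) with BV6. The groups of FOXO3 did not overlap. Its adjusted p was 0.168 with condition only, 0.0474 with the GC offset and 0.00435 with the GC offset and block (edgeR, Benjamini-Hochberg). MYOD1, a master regulator of the muscle lineage, was at 344 ± 86.8 and 251 ± 89.5 CPM with overlapping groups.

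**Figure D5:**
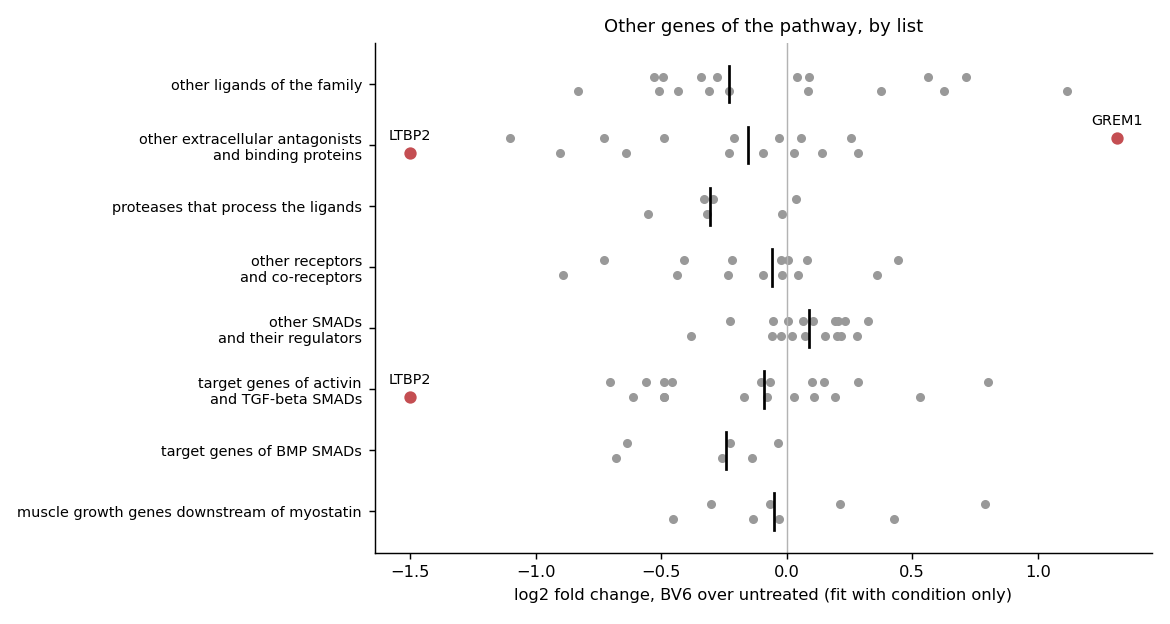
Log2 fold change of BV6 over untreated samples (horizontal axis, fit with condition only) for each tested gene of the 8 further pathway lists; black bars are list medians and red points passed the test with or without the replicate block. GREM1 stands at 1.32 and LTBP2, drawn in the 2 lists that hold it, at -1.50.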

How the data were processed

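The authors prepared stranded poly(A) libraries, sequenced both ends, mapped reads with STAR 2.6.1d to GRCh38 and counted them over a union of isoforms per Ensembl gene. They deposited raw counts without normalization. Strand use in counting, handling of shared reads and whether mates were counted once are not given in the sources used here, and total counts exceed the stated read number per library. Groups and experiment labels came from the sample labels. The members and lists were chosen with earlier results of these data known.

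Counts were tested in R 4.3.3 by the quasi-likelihood F test of edgeR 4.0.16 with TMM factors (filterByExpr, min.count 10), with condition only, over 23124 genes, and Benjamini-Hochberg adjustment over all of them. A call is an adjusted p below 0.05. Standard errors and intervals were derived from the fold change and its F statistic. The study normalized with DESeq2 and used its Wald test, and DESeq2 1.42.0 was an alternative here. Others were RLE factors, total counts, other filters, limma-voom (limma 3.58.1), the replicate block, a GC offset, down-sampling and leaving out samples. Counts halved and rounded up, and leaving out experiment 2, were added after the data had been seen. The code was tested on simulated data.

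The pairing came from labels shared by sample titles. Deviations from group means correlated at 0.515, 0.322 and 0.197 within the 3 pairs over complete pairs, and between -0.352 and 0.132 across experiments. With untreated replicate 1 included in the means, the 3 were 0.462, 0.438 and 0.0847, and those across experiments ran from -0.437 to 0.278. The value of experiment 4 was then below some of those across experiments.

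Total counts were 54070030 to 77220882 per sample. Coordinates, exon lengths and overlaps came from GENCODE for GRCh38, where 36327 genes matched by symbol and 870 by an older one. Upstream windows came from RefSeq. Named further genes were those called in either edgeR fit and, otherwise, the most abundant and the one with the smallest p of each list.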

Additional observations from a re-analysis of the deposited data

Results flagged for a closer look

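In 4 of 29 values examined, 1 of the 4 untreated samples stood apart from the others by Dixon's criterion, which compares the gap to the nearest other sample with the range of the group and which chance meets in about 1 in 20 groups. FST in untreated replicate 3 was 162 CPM, beside 99.9 to 110 CPM in the others, with a gap of 0.84 of the range. SMAD3 in untreated replicate 2 was 26.3 CPM, beside 32.2 to 33.4 CPM, with a gap of 0.837. CTGF in untreated replicate 2 was 9.61 CPM, beside 8.20 to 8.32 CPM, with a gap of 0.912. MYOD1 in untreated replicate 1 was 473 CPM, beside 293 to 311 CPM, with a gap of 0.899.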

How the results depend on the processing

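Over all genes tested, 104 were called with condition only, 87.5% of them higher. The count was 242 with no filter, 401 with DESeq2 (60.3% higher), 218 with the replicate block (68.8% higher), 341 with the block on the 3 complete pairs (62.8% higher), 222 with a GC offset (75.7% higher), 1194 with the GC offset and block (50% higher), 25 without experiment 2 and 38 to 89 with 1 sample left out. The cause of these differences was not tested. Called members numbered 2 with no filter, with DESeq2, with the replicate block, with the 3 complete pairs and with the GC offset and block, 0 without experiment 2 and 0 to 1 with 1 sample left out. Called further pathway genes numbered 3 with no filter, 5 with DESeq2, 2 with the replicate block, 5 with the 3 complete pairs, 6 with the GC offset, 21 with the GC offset and block, and 1 to 2 with 1 sample left out. The 21 stand beside the 1194 calls among all 17940 genes in that fit. In edgeR the log2 fold change of MSTN was -1.144 without experiment 2 and ran from -1.58 to -1.235 with 1 sample left out, with no call in 6 of these 7 fits. With counts halved and rounded up, MSTN was at -1.396 with an adjusted p of 0.0235 (edgeR, Benjamini-Hochberg). FST passed at -0.9654 with no filter, -0.9765 with DESeq2, -1.059 with the replicate block, -1.056 with the 3 complete pairs and -1.078 with the GC offset and block. The other directions that turned belong to values never called. FSTL3 was at -0.0285 without experiment 2 and -0.1093 to 0.336 with 1 sample left out. ACVR2A was at -0.07917 with the replicate block, -0.0756 with the 3 complete pairs, -0.07094 with the GC offset, -0.1158 with the GC offset and block, and -0.1617 to 0.2131 with 1 sample left out. ACVR1B was at -0.01097 with RLE factors, -0.006124 with no filter, -0.01357 with DESeq2, -0.01084 with the replicate block, -0.007369 with the 3 complete pairs and -0.0231 to 0.03256 with 1 sample left out. STRAP was at -0.005312 with the replicate block, -0.001887 with the 3 complete pairs, -0.03068 with the GC offset, -0.02841 with the GC offset and block, and -0.05032 to 0.1021 with 1 sample left out. With 1 sample left out, GDF11 ran from -0.122 to 0.04353 and SMAD7 from -1.015 to 0.2932. By the longest transcript, untreated levels were 2.139 CPM per kb for FSTL3, 6.545 for ACVR2A, 3.795 for ACVR2B, 6.903 for ACVR1B and 4.828 for SMAD3. The replicate block changed no other call of a named member. The total counts limit INHBA most, at 2 to 8 counts per sample.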
